A study of Mus musculus with 48 samples.

Results

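Matrix metalloproteinases (MMPs) and their tissue inhibitors (TIMPs) were followed from mouse embryonic fibroblasts (MEFs) through reprogramming to induced pluripotent stem cells (iPSCs). The genes were Mmp2, Mmp3, Mmp9, Mmp13, Mmp14, Timp1, Timp2, and Timp3. They were chosen by symbol from the deposited count table, which holds these 8 genes among 24264 transcripts. All 8 were among the 15630 genes tested. A gene is tested when its counts are high enough in at least 2 libraries, the size of the smallest condition, whichever conditions they belong to.

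MMPs are zinc-dependent proteases that cut collagens, fibronectin, laminins, and other proteins of the extracellular matrix, and most are made as inactive precursors. TIMPs bind the active site of these proteases and block it. Fibroblasts are a main source of both, and the loss of a fibroblast-like matrix is part of the mesenchymal-to-epithelial transition through which reprogramming cells pass.

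RNA was sequenced from 48 libraries of 20 conditions by a method that reads the 5′ end of each transcript (single-cell tagged reverse transcription, STRT). MKOS and OKMS are cassettes of the reprogramming factors (M for Myc, K for Klf4, O for Oct4, S for Sox2, in the order of the letters), transcribed as 1 RNA when doxycycline is present. Each was targeted, with a CAG-driven transactivator, into an intron of Sp3 in TNG embryonic stem cells (ESCs), which carry GFP at the Nanog locus, and MKOS encodes a long and OKMS a short form of Klf4. MKOS and OKMS MEFs came from chimeric embryos made with these ESCs, and for reprogramming they were diluted with wild-type MEFs. The 8 sorted populations had 3 libraries each and came from cultures with doxycycline and vitamin C. They were taken on day 10, although the labels also name a longer culture. All were CD44-. 2NG- cells were ICAM1- and Nanog-GFP-, 3NG- cells were ICAM1+ and Nanog-GFP-, and 3NG+ cells were ICAM1+ and Nanog-GFP+. Each cassette gave E-CAD+ cells of all 3 gates, and OKMS also gave E-CAD- cells of the 2NG- and 3NG- gates. The other 12 conditions had 2 libraries each. They were MEFs with either cassette or none (wild type, wt), ESCs of the lines E14 and TNG, and TNG ESCs with either cassette (TNG MKOS, TNG OKMS). The rest were iPSCs of either cassette, kept without doxycycline (-dox) or in medium with 2 kinase inhibitors (2i), and D6 iPSCs. D6 was taken to be the line that the study calls D6s4B5, with a single transposon copy of MKOS. Neither the labels nor the methods say that libraries of a condition came from separate cultures or embryos, so p-values measure the spread between libraries. Where libraries of compared groups are said not to overlap, this is a description. The share of all genes without overlap was not counted.

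Libraries held 1429717 to 14174725 reads on transcripts, and 3 reads corresponded to 0.212 to 2.10 CPM (reads per 1000000 reads on transcripts, counting error only). MEFs had a summed level of 10 fibroblast markers of 4162 to 6692 CPM, against 109 to 400.0 CPM in the 18 ESC and iPSC libraries. The summed level of 8 pluripotency markers was 2.57 to 11.5 CPM in MEFs and 10866 to 23335 CPM in ESCs and iPSCs. In OKMS 2NG- cells, 7 epithelial markers summed to 813 to 1132 CPM in the E-CAD+ and to 97.0 to 219 CPM in the E-CAD- libraries. Sorted libraries also held 28.5 to 1938 CPM of 8 macrophage and blood markers, mostly Lyz2. These markers summed to 22.3 to 79.6 CPM in ESCs and iPSCs and to 14.8 to 275 CPM in MEFs. Of this list, the pan-leukocyte gene Ptprc did not exceed 2.83 CPM. Tyrobp and Csf1r, also of this list, reached 92.9 and 11.3 CPM in sorted libraries and at most 30.3 and 3.70 CPM in MEFs. Because RNA was measured in bulk, fewer cells of a type and less RNA per cell cannot be told apart.

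The sequences just before the annotated starts are shown for 4 of the genes because STRT reads begin at the start of a transcript and because Mmp3 and Mmp13 were the members without a read in any ESC library. RefSeq entries on GRCm38.p6 were matched for 6 members, Mmp3, Mmp13, Mmp14, Timp1, Timp2, and Timp3. Each sequence is 110 bases long, 5′ to 3′, and ends at the base before the RefSeq start. Capitals mark matches to 4 motifs on either strand. The motif of the AP-1 factors was searched as TGAGTCA. The TATA box, which positions the start of transcription, was searched as TATAAA. The GC box, a site of Sp1 and related factors, was searched as GGGCGG. The PEA3 element, a site of Ets factors, was searched as AGGAAG. They are Mmp3 (chr9:7445712-7445821, plus strand), Mmp13 (chr9:7272404-7272513, plus strand), Timp1 (chrX:20870056-20870165, plus strand), and Timp2 (chr11:118355412-118355521, minus strand).
Mmp3: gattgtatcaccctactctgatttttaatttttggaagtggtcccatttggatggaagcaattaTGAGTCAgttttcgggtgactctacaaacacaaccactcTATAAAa
Mmp13: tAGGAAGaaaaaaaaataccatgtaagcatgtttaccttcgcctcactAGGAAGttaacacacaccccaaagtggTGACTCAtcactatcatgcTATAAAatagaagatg
Timp1: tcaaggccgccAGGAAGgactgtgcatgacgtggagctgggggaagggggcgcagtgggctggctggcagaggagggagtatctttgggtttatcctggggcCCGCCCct
Timp2: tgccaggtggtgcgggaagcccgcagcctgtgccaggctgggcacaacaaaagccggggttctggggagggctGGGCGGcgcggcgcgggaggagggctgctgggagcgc
In the 250 bases before the start, searched on both strands, Mmp3 and Mmp13 each held 1 AP-1 element and 1 TATA box and no GC box. Counted from the RefSeq start, the TATAAA match lay at -7 to -2 in Mmp3 and at -16 to -11 in Mmp13. Whether these matches position the start was not tested. Mmp14, Timp1, Timp2, and Timp3 held 2, 1, 1, and 1 GC boxes and neither an AP-1 element nor a TATA box. PEA3 elements numbered 1 in Mmp3, 2 in Mmp13, 1 in Mmp14, 2 in Timp1, 1 in Timp3, and 0 in Timp2. Of 32851 RefSeq windows of that length, 4.46% held an AP-1 element, 12.4% a TATA box, 32.7% a GC box, and 29.5% a PEA3 element. The same 250 bases contained 1 CpG in Mmp3 and 1 in Mmp13, 6 in Timp1, 10 in Mmp14, 18 in Timp3, and 21 in Timp2, and the median of all windows was 6. These matches describe the letters of the windows.

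RNA of every member was detected in each of the 3 MEF conditions. Timp1, which inhibits most secreted MMPs, was at 857 and 880 CPM in wt, 751 and 643 CPM in MKOS, and 906 and 784 CPM in OKMS MEFs. Mmp2, a gelatinase, was at 116 and 95.1 CPM in wt, 191 and 198 CPM in MKOS, and 142 and 188 CPM in OKMS MEFs. Mmp13, a collagenase, was at 22.3 and 29.8 CPM in wt MEFs and at 1.48 to 8.13 CPM in the 4 MEF libraries with a cassette. The wt libraries were thus the higher ones for Mmp13 without overlap, but the difference of 2.50 on the log2 scale (SE 1.14) had an FDR of 0.56 in edgeR's quasi-likelihood test (0.00158 in a fit to the MEF libraries alone). Mmp2, Mmp3, and Timp3 were the lower ones in wt, also without overlap. The fit to MEF libraries alone called Mmp3 (FDR 0.0109) and Timp3 (FDR 0.0142) too, among 374 genes, and the fit to all libraries called neither. Mmp9, the other gelatinase, was at 3.70 and 4.02 CPM in wt, 0.409 and 0 CPM in MKOS, and 3.90 and 3.21 CPM in OKMS MEFs, and had 325 reads in all 48 libraries. Between MKOS and OKMS MEFs, edgeR called 0 of 8 members at an FDR of at most 0.05, 0 had an unadjusted p under 0.05, and DESeq2 called 0, while 0.102% of all genes were called. Between wt MEFs and MEFs with a cassette, edgeR and DESeq2 called 0 of 8 members, Mmp13 alone had an unadjusted p under 0.05, and 0.717% of all genes were called.

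**Figure D1:**
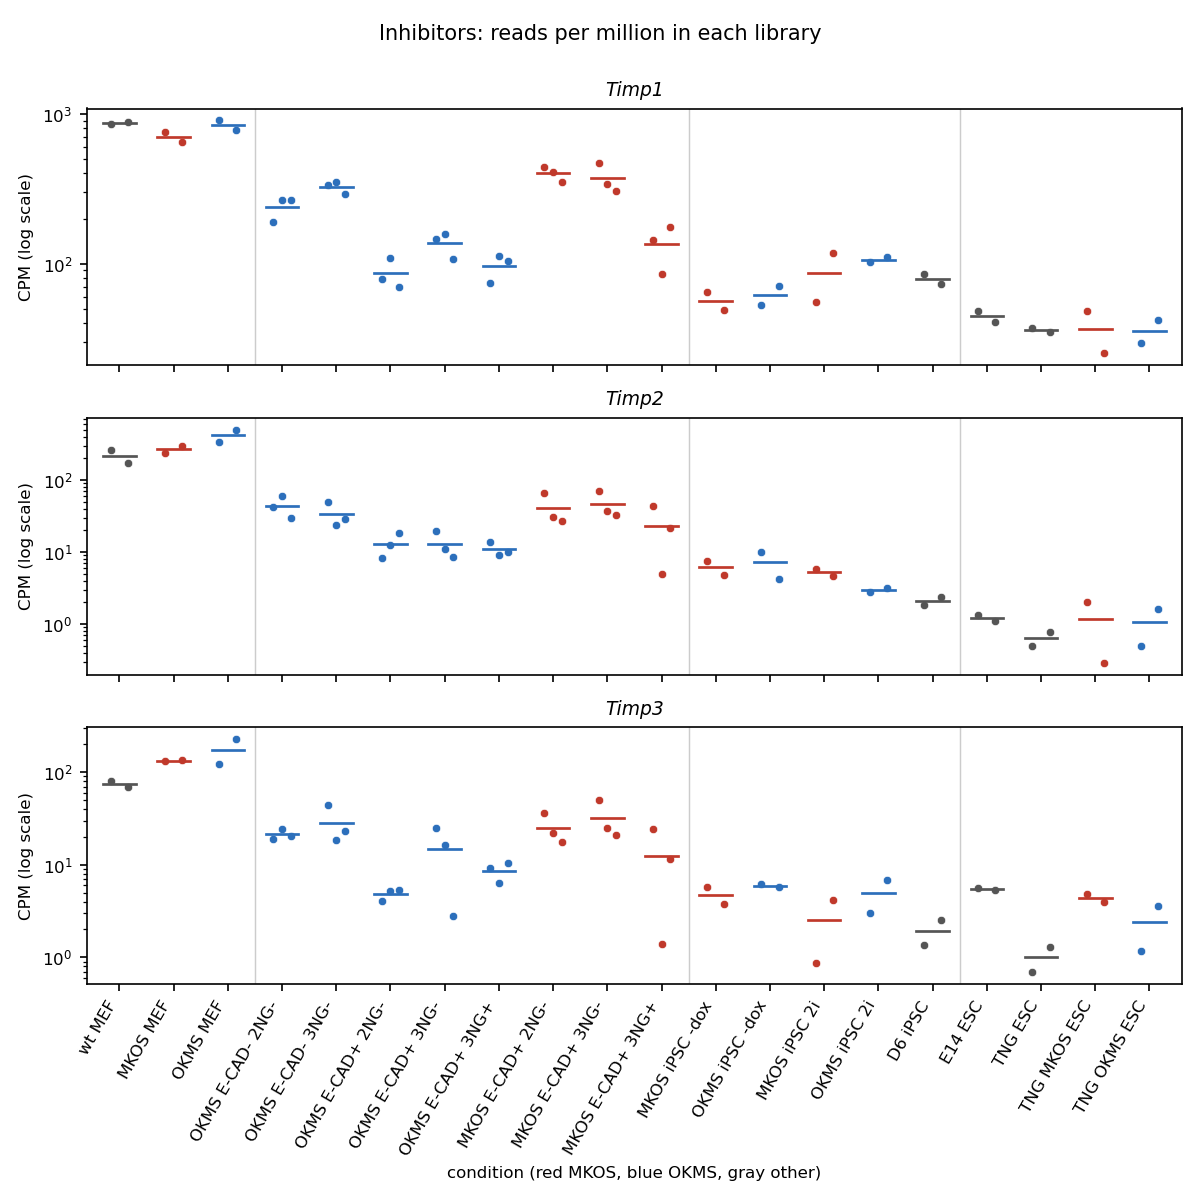
Reads per 1000000 (CPM, log axis) of Timp1, Timp2, and Timp3 in each of 48 libraries, by condition. Points are libraries, horizontal lines are means of the 2 or 3 libraries, red is MKOS, blue is OKMS, and gray is wt, D6, E14, or TNG cells. Timp1 lies between 350 and 444 CPM in MKOS E-CAD+ 2NG- cells and between 70.3 and 109 CPM in OKMS E-CAD+ 2NG- cells.

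The first question was how the genes had moved from MEFs to the earliest sorted populations, the 2NG- cells. Mmp2, Mmp14, Timp1, Timp2, and Timp3 fell in all 3 populations, by 1.80-fold to 32.3-fold, and no member was called higher. The mean of Mmp9 was 0.497 CPM in MKOS E-CAD+ 2NG- cells, above 0.205 CPM in MKOS MEFs. That of Mmp13 was 5.12 CPM in OKMS E-CAD- 2NG- cells, against 4.81 CPM in OKMS MEFs. In MKOS E-CAD+ 2NG- cells 5 of 8 members were called lower than in MKOS MEFs, against 12.0% of all genes. In OKMS E-CAD- 2NG- cells 5 of 8 were called lower than in OKMS MEFs, against 10.1%, and in OKMS E-CAD+ 2NG- cells 5 of 8, against 13.5%. The median log2 change of the 8 members was -2.39, -2.00, and -3.36 in these comparisons, and that of all genes was 0.00 in each. The 2 OKMS comparisons share the OKMS MEF libraries. The mean sum of fibroblast markers in the 3 populations was 16.4%, 19.8%, and 6.42% of that in the MEFs of their cassette. The macrophage and blood markers summed to 14.8 and 18.4 CPM in MKOS, 115 and 134 CPM in OKMS, and 252 and 275 CPM in wt MEFs. Their mean sum was 876 CPM in MKOS E-CAD+, 610 CPM in OKMS E-CAD-, and 237 CPM in OKMS E-CAD+ 2NG- cells. The part of these cell types in the changes was not tested. Doxycycline, vitamin C, the mixing with wt MEFs, and time in culture differed between sorted cells and MEFs along with their state and cannot be told apart from it.

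Of the proteases, Mmp14 is a membrane-bound MMP that activates the precursor of Mmp2 at the cell surface. Mmp14 was at 119 and 94.2 CPM in MKOS MEFs and at 31.9, 18.6, and 13.96 CPM in MKOS E-CAD+ 2NG- cells, and it fell by 2.35 on the log2 scale (SE 0.57, edgeR FDR 0.00176). It was at 117 and 205 CPM in OKMS MEFs and at 21.8, 28.5, and 21.0 CPM in OKMS E-CAD- 2NG- cells. In OKMS E-CAD+ 2NG- cells it was at 3.24, 18.1, and 17.4 CPM. The 2 groups of sorted OKMS cells were both below all MEF libraries, with log2 changes of -2.78 (SE 0.58, edgeR FDR 0.000428) and -3.51 (SE 0.60, edgeR FDR 1.55e-05). Its partner Mmp2 was at 26.6, 15.1, and 26.3 CPM in MKOS E-CAD+ 2NG- cells, at 53.9, 31.6, and 28.0 CPM in OKMS E-CAD- 2NG- cells, and at 2.05, 10.6, and 15.0 CPM in OKMS E-CAD+ 2NG- cells. Its log2 changes from MEFs were -3.13 (SE 0.61, edgeR FDR 0.00011), -2.13 (SE 0.59, edgeR FDR 0.00728), and -4.00 (SE 0.63, edgeR FDR 4.84e-06). Without replicate 2 of OKMS MEFs, the change in E-CAD- cells had an FDR of 0.0516.

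Mmp3, a stromelysin that cuts many matrix proteins and activates other MMPs, was at 160 and 105 CPM in MKOS MEFs and at 83.1 and 76.3 CPM in OKMS MEFs. It was at 1.84, 0, and 21.5 CPM in MKOS E-CAD+ 2NG- cells, 2.66, 2.75, and 64.1 CPM in OKMS E-CAD- 2NG- cells, and 0, 0, and 29.8 CPM in OKMS E-CAD+ 2NG- cells. Each of these libraries was below the MEFs of its cassette, but replicate 3 stood far above the other 2 in each population. The log2 changes of -4.15 (SE 1.70), -1.86 (SE 1.59), and -2.72 (SE 1.62) had edgeR FDRs of 0.0676, 0.444, and 0.208. With a block for the replicate number, the FDRs were 0.000114, 0.00995, and 0.000854. That block covered the sorted libraries alone, so it set these populations at the level of replicate 1, where Mmp3 was low. Without the 7 libraries that the averages in the study's supplementary table leave out, replicate 3 of these populations among them, the FDRs were 0.000193, 0.00489, and 0.000138. The log2 changes in the first 2 populations were then -7.13 and -4.88, and both remaining OKMS E-CAD+ 2NG- libraries were at 0. Mmp13 was at 7.78 and 1.55 CPM in MKOS and at 1.48 and 8.13 CPM in OKMS MEFs, and at 0.322 to 6.69 CPM in the 9 libraries of 2NG- cells. Its ranges in MEFs and in each population overlapped, and its lowest edgeR FDR was 0.193. Mmp9 was at 0 to 2.77 CPM in the 9 libraries of 2NG- cells.

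Of the inhibitors, Timp2 also takes part in the activation of Mmp2 by Mmp14, and Timp3 binds to the matrix and inhibits Adam and Adamts proteases as well. Timp2 was at 235 and 295 CPM in MKOS MEFs and at 65.5, 30.4, and 27.4 CPM in MKOS E-CAD+ 2NG- cells, a log2 change of -2.71 (SE 0.50, edgeR FDR 6.71e-05). It was at 336 and 500.0 CPM in OKMS MEFs, at 41.7, 60.4, and 30.0 CPM in OKMS E-CAD- 2NG- cells, and at 8.18, 12.6, and 18.4 CPM in OKMS E-CAD+ 2NG- cells. All sorted OKMS libraries were below both OKMS MEF libraries, and the log2 changes were -3.27 (SE 0.52, edgeR FDR 7.6e-06) and -4.83 (SE 0.55, edgeR FDR 9.01e-09). Timp3 was at 132 and 136 CPM in MKOS MEFs and at 36.2, 21.8, and 17.8 CPM in MKOS E-CAD+ 2NG- cells, a log2 change of -2.43 (SE 0.59, edgeR FDR 0.00152). It was at 122 and 229 CPM in OKMS MEFs, at 19.2, 24.4, and 20.4 CPM in OKMS E-CAD- 2NG- cells, and at 4.09, 5.16, and 5.36 CPM in OKMS E-CAD+ 2NG- cells. The OKMS E-CAD+ cells held the lowest Timp3 levels of the 3 populations, and the log2 changes were -3.05 (SE 0.60, edgeR FDR 0.000189) and -5.01 (SE 0.66, edgeR FDR 1.49e-07).

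Timp1 fell in all 3 populations as well. It was at 444, 408, and 350 CPM in MKOS E-CAD+ 2NG- cells, where its mean was 57.5% of that in MKOS MEFs, and the log2 change was -0.84 (SE 0.30, edgeR FDR 0.0306). That call was lost without MKOS MEF replicate 1 (FDR 0.242), without MKOS E-CAD+ 2NG- replicate 2 (FDR 0.0686) or 3 (FDR 0.101), and without the 7 libraries (FDR 0.064). It was at 188, 266, and 267 CPM in OKMS E-CAD- 2NG- cells and at 78.4, 109, and 70.3 CPM in OKMS E-CAD+ 2NG- cells, 28.4% and 10.2% of the mean in OKMS MEFs. Both OKMS populations were below all MEF libraries, with log2 changes of -1.87 (SE 0.30, edgeR FDR 9.52e-06) and -3.22 (SE 0.31, edgeR FDR 2.32e-10).

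An interaction term compared how far the cassettes had moved Timp1 and the other members away from the MEF level, taking the average of the E-CAD+ 2NG- and 3NG- gates. For Timp1 it was lower in OKMS than in MKOS by 1.96 on the log2 scale (SE 0.39, edgeR FDR 0.00341), and 1 of 8 members was called, against 0.813% of all genes in that direction. The value ranged from -2.17 to -1.74 over 22 other settings and was called in 21 of them, and the exception was the fit without MKOS MEF replicate 2 (FDR 0.0755). Timp2 and Timp3 had differences of -2.22 (SE 0.65, FDR 0.072) and -1.95 (SE 0.76, FDR 0.222) on the same scale. Those of Mmp2 and Mmp14 were -0.25 (SE 0.75) and -1.22 (SE 0.73), and the lower of their FDRs was 0.496.

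**Figure D2:**
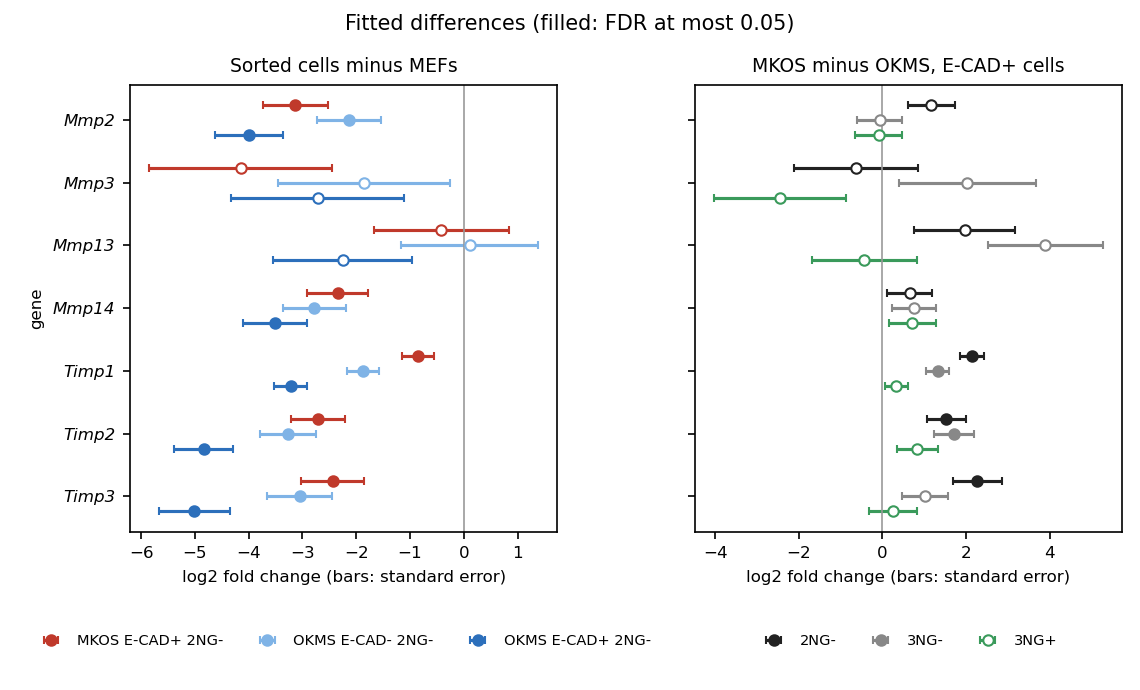
Log2 fold changes (horizontal axis, with standard errors as bars) of 7 members, from MEFs to 2NG- cells on the left and between the cassettes in E-CAD+ cells on the right. Filled points had an FDR of at most 0.05 in edgeR's quasi-likelihood test. On the left, Timp1 is at -0.84 in MKOS E-CAD+ and at -3.22 in OKMS E-CAD+ 2NG- cells, and on the right it is at 2.15, 1.33, and 0.33 in 2NG-, 3NG-, and 3NG+ cells.

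The second question was whether cells that had passed to E-CAD expression differed between MKOS and OKMS, whose E-CAD+ Nanog-GFP- cells carry the same surface markers. In 2NG- cells, Timp1, Timp2, and Timp3 were higher in MKOS, 3 of 8 members against 2.84% of all genes in that direction, and no protease was called. Timp1 was higher by 2.15 on the log2 scale (SE 0.28, edgeR FDR 1.94e-06), and the lowest MKOS library, at 350 CPM, was above the highest OKMS library, at 109 CPM. This call held in all 12 other settings, with FDRs up to 0.000366. Timp3 was higher by 2.27 (SE 0.58, edgeR FDR 0.0137), at 17.8 to 36.2 CPM against 4.09 to 5.36 CPM. The call was lost without replicate 1 of MKOS (FDR 0.0902) or of OKMS (FDR 0.0673) E-CAD+ 2NG- cells. Timp2 was higher by 1.53 (SE 0.47, edgeR FDR 0.0487), at 27.4 to 65.5 CPM against 8.18 to 18.4 CPM. The call was kept in 7 of 12 other settings. It was lost without MKOS replicate 1 (1.00 on the log2 scale, FDR 0.325) or 2 (FDR 0.0553), without OKMS replicate 1 (FDR 0.202) or 2 (FDR 0.133), and in a fit to the compared libraries alone (FDR 0.0644). The groups did not overlap for any of the 3 inhibitors, but how many of all genes did not overlap was not counted.

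In E-CAD+ 3NG- cells, Timp1 and Timp2 were higher in MKOS, 2 of 8 members against 1.38% of all genes in that direction. Timp1 was at 472, 339, and 305 CPM in MKOS and at 146, 158, and 108 CPM in OKMS, a difference of 1.33 on the log2 scale (SE 0.27, edgeR FDR 0.0039), and all 12 other settings called it. Timp2 was at 70.6, 36.8, and 32.8 CPM in MKOS and at 19.5, 11.2, and 8.48 CPM in OKMS. Its libraries did not overlap and the difference was 1.72 (SE 0.48, edgeR FDR 0.0441), and 5 of 12 other settings called it. The FDR was 0.271 and 0.0618 without MKOS replicates 1 and 2, and 0.0503, 0.168, and 0.168 without OKMS replicates 1, 2, and 3. It was 0.0916 without the 7 libraries and 0.0611 in a fit to the compared libraries alone. Timp3 was at 49.8, 25.0, and 21.2 CPM in MKOS and at 24.7, 16.4, and 2.83 CPM in OKMS, and the groups overlapped (edgeR FDR 0.373). Mmp13 was at 2.35, 1.57, and 8.45 CPM against 0.535, 0, and 0 CPM, without overlap, and had an FDR of 0.144. Mmp2 and Mmp14 overlapped between the cassettes, with log2 differences of -0.06 (SE 0.54) and 0.76 (SE 0.52).

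Other markers moved with these differences. The 10 fibroblast markers summed to 757 to 1457 CPM in MKOS and to 234 to 415 CPM in OKMS E-CAD+ 2NG- cells, and to 999 to 1816 and 318 to 517 CPM in 3NG- cells, with none of the 10 at 0 in MKOS and at most 1 at 0 in OKMS. The 8 macrophage and blood markers summed to 162 to 1618 CPM in MKOS and to 134 to 314 CPM in OKMS E-CAD+ 2NG- cells, and to 168 to 1938 and 28.5 to 391 CPM in 3NG- cells, with at most 1 of the 8 at 0 in MKOS and at most 2 in OKMS. Their means were 876 and 237 CPM in 2NG- and 1064 and 261 CPM in 3NG- cells, so both marker sums were higher on average in MKOS in both gates. The part of fibroblast and macrophage RNA in these differences was not tested.

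In 3NG+ cells, which express the Nanog reporter, no member passed the test between the cassettes. Timp1 was at 144, 85.5, and 174 CPM in MKOS and at 74.0, 113, and 104 CPM in OKMS, a difference of 0.33 on the log2 scale (SE 0.27, edgeR FDR 0.656). edgeR and DESeq2 called 0 of 8 members, 0 had an unadjusted p under 0.05, and 0.685% of all genes were called. Timp2 was at 42.9, 4.94, and 21.5 CPM in MKOS and at 13.7, 9.09, and 10.0 CPM in OKMS. MKOS replicate 2 had the lowest level of Mmp2, Mmp14, Timp1, Timp2, and Timp3 among the MKOS 3NG+ libraries, and it also had the lowest sum of fibroblast markers, 285 CPM, against 656 and 1036 CPM.

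E-CAD- cells were sorted from OKMS cultures alone, and they were compared with E-CAD+ cells to see what changed with E-CAD expression. Timp1 was lower in E-CAD+ than in E-CAD- 2NG- cells by 1.35 on the log2 scale (SE 0.28, edgeR FDR 0.00309) in a comparison in which 0.691% of all genes were called lower. It was also lower in 3NG- cells, at 146, 158, and 108 CPM against 336, 349, and 293 CPM, a log2 difference of -1.15 (SE 0.27, edgeR FDR 0.0145), where 0.166% of all genes were called lower. In both gates no E-CAD+ library reached the lowest E-CAD- library, but the call in 3NG- cells was lost in 4 of 12 other settings, with FDRs of 0.129 without E-CAD+ replicate 3, 0.0573 and 0.0639 without E-CAD- replicates 1 and 2, and 0.114 without the 7 libraries. In 2NG- cells, Mmp2, Timp2, and Timp3 were also lower without overlap, by 1.87, 1.56, and 1.96 on the log2 scale, and had FDRs of 0.0727, 0.0727, and 0.0637 in edgeR. DESeq2's Wald test called these 3 as well, 4 of 8 members in all, and it called 1.74% of all genes lower. The fibroblast markers summed to 234 to 415 CPM in E-CAD+ and to 930 to 968 CPM in E-CAD- 2NG- cells, and to 318 to 517 and 903 to 1222 CPM in 3NG- cells. The macrophage and blood markers summed to 134 to 314 CPM in E-CAD+ and to 143 to 940 CPM in E-CAD- 2NG- cells, and to 28.5 to 391 and 64.0 to 740 CPM in 3NG- cells. The part of either in these differences was not tested.

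MKOS E-CAD+ and OKMS E-CAD- 2NG- cells had like sums of fibroblast markers, 757 to 1457 and 930 to 968 CPM, and their members were compared after the values had been seen. Their macrophage and blood markers summed to 162 to 1618 and 143 to 940 CPM. Cassette and E-CAD state both differed between them and cannot be told apart. The log2 differences of Mmp2, Mmp14, Timp2, and Timp3 were -0.70 (SE 0.54), -0.08 (SE 0.53), -0.03 (SE 0.46), and 0.31 (SE 0.54). Timp1 was higher in all 3 MKOS libraries, by 0.80 (SE 0.27), with an edgeR FDR of 0.0535 (0.0151 in a fit to the compared libraries alone). edgeR and DESeq2 called 0 of 8 members, Timp1 alone had an unadjusted p under 0.05, and 9.59% of all genes were called. The 3NG- cells, with fibroblast sums of 999 to 1816 CPM in MKOS E-CAD+ and 903 to 1222 CPM in OKMS E-CAD-, were not tested. Timp1 overlapped in that gate, at 472, 339, and 305 CPM in MKOS E-CAD+ and at 336, 349, and 293 CPM in OKMS E-CAD- cells.

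**Figure D3:**
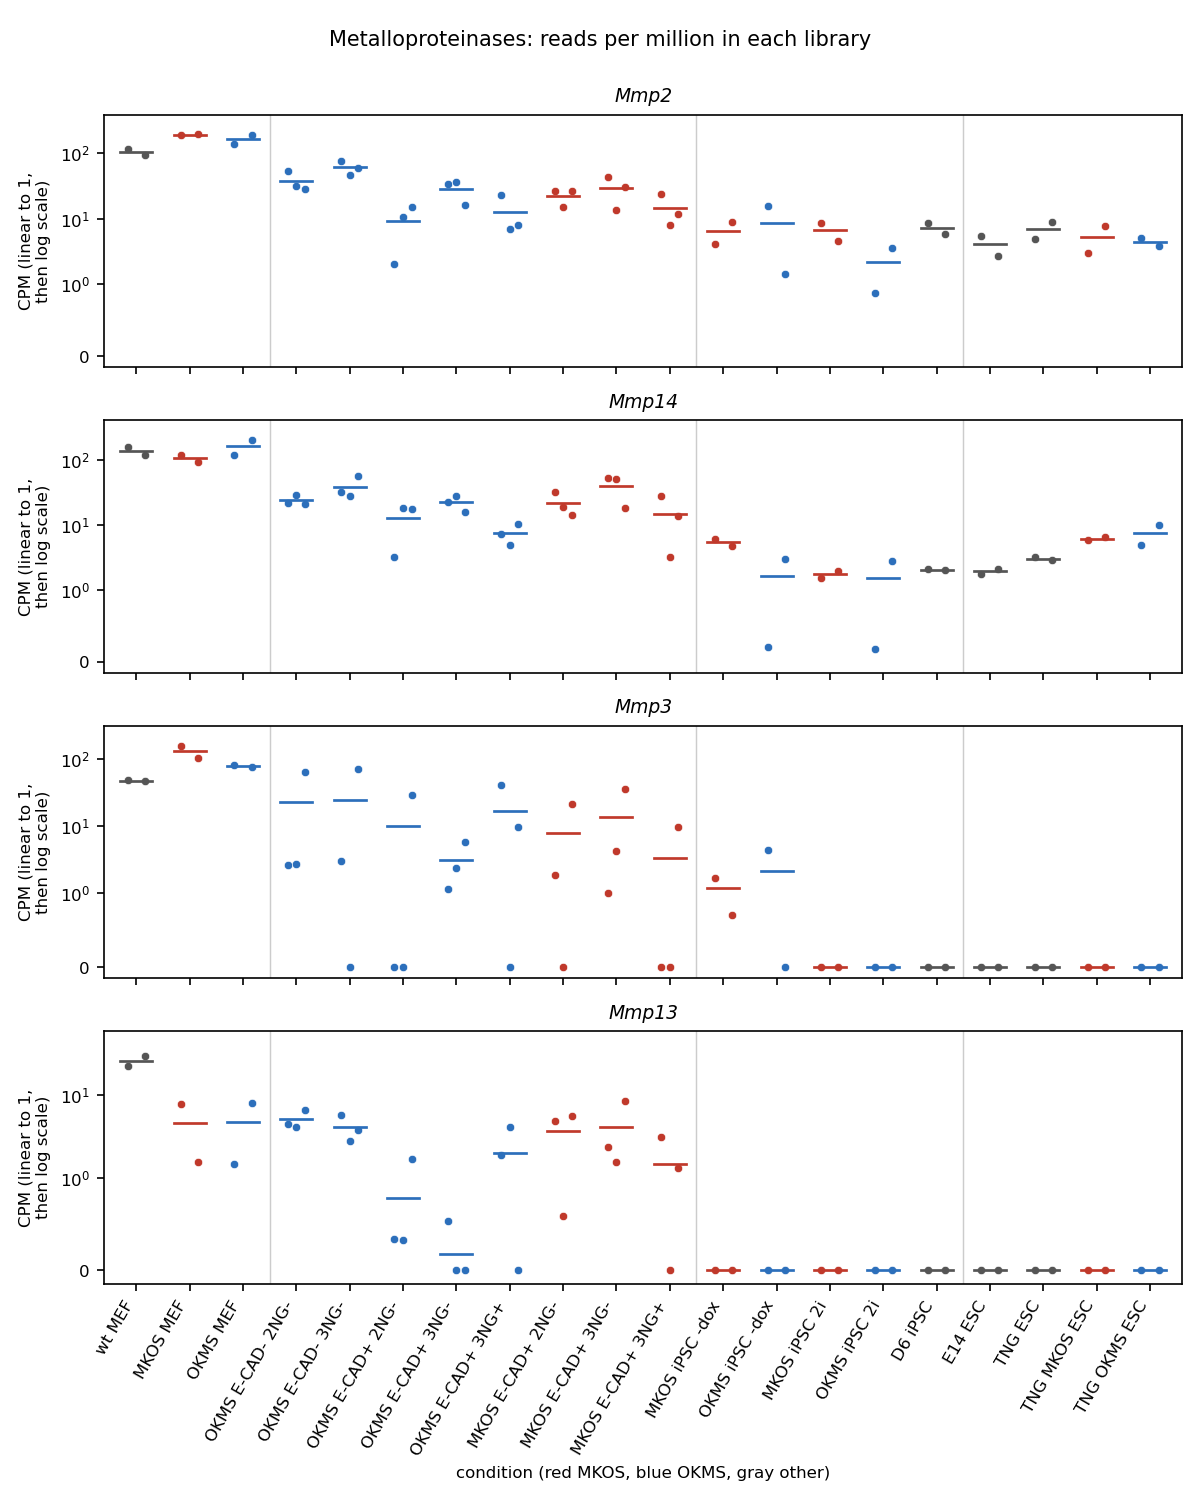
Reads per 1000000 (CPM, axis linear from 0 to 1 and logarithmic above) of Mmp2, Mmp14, Mmp3, and Mmp13 in each library, by condition. Points are libraries, horizontal lines are means, red is MKOS, blue is OKMS, and gray is wt, D6, E14, or TNG cells. Mmp3 and Mmp13 are at 0 in all 8 ESC libraries, and Mmp3 spans 0 to 71.6 CPM among the 24 sorted libraries.

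Along the route, no member passed the test between the ICAM1- and the ICAM1+ gate. Between 3NG- and 2NG- cells, edgeR and DESeq2 called 0 of 8 members in MKOS E-CAD+, OKMS E-CAD+, and OKMS E-CAD- cells, where 0.390%, 0.0384%, and 0.0448% of all genes were called. The number of members with an unadjusted p under 0.05 was 0, 3, and 0, and the 3 were Mmp2, Timp1, and Timp3 in OKMS E-CAD+ cells. In those cells Mmp2 was at 33.6, 36.4, and 16.5 CPM in the 3NG- and at 2.05, 10.6, and 15.0 CPM in the 2NG- gate, without overlap (log2 difference 1.54, SE 0.57, edgeR FDR 0.865).

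Between the Nanog-GFP- and the Nanog-GFP+ gate of ICAM1+ cells, Timp1 was lower in MKOS 3NG+ cells. MKOS 3NG+ cells, at 85.5 to 174 CPM, were below MKOS 3NG- cells, at 305 to 472 CPM, by 1.31 on the log2 scale (SE 0.27, edgeR FDR 0.0078), and Timp1 was the 1 member of 8 called, against 1.02% of all genes called lower. Without MKOS 3NG+ replicate 2 the FDR was 0.107, and without MKOS 3NG- replicate 1 it was 0.0989. The fibroblast markers summed to 999 to 1816 CPM in MKOS 3NG- and to 285 to 1036 CPM in MKOS 3NG+ cells, and the macrophage and blood markers to 168 to 1938 and 93.7 to 942 CPM, and their part in the fall of Timp1 was not tested. OKMS 3NG+ cells, at 74.0 to 113 CPM, overlapped OKMS 3NG- cells, at 108 to 158 CPM (log2 difference -0.31, SE 0.27, edgeR FDR 0.545). In OKMS, edgeR and DESeq2 called 0 of 8 members, 2 (Mmp13 and Mmp14) had an unadjusted p under 0.05, and 6.26% of all genes were called. Mmp3 was at 1.16, 2.38, and 5.89 CPM in OKMS E-CAD+ 3NG- and at 40.9, 0, and 9.59 CPM in OKMS 3NG+ cells (edgeR FDR 0.325). Without the 7 libraries that the study's averages leave out, edgeR called it higher in 3NG+ cells, by 4.22 on the log2 scale (FDR 0.027). The difference of this step between cassettes was tested after the values had been seen and was 1.00 for Timp1 (SE 0.39, edgeR FDR 0.521). For that difference, edgeR and DESeq2 called 0 of 8 members, 2 (Mmp13 and Timp1) had an unadjusted p under 0.05, and 0.0256% of all genes were called.

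From 3NG+ cells to iPSCs without doxycycline, Timp1 fell again in MKOS, to 64.2 and 49.1 CPM, by 1.28 on the log2 scale (SE 0.32, edgeR FDR 0.0202), and 1 of 8 members was called, against 1.32% of all genes called lower. That call was kept in 7 of 11 other settings, and it was lost without iPSC replicate 1 (FDR 0.104) or 2 (FDR 0.226), without 3NG+ replicate 3 (FDR 0.118), and in a fit to the compared libraries alone (FDR 0.0522). DESeq2 called Timp2 as well, with an FDR of 0.0332 against 0.0783 in edgeR, and 2.76% of all genes lower. The fibroblast markers summed to 285 to 1036 CPM in MKOS 3NG+ cells and to 114 and 312 CPM in these iPSCs, and the macrophage and blood markers to 93.7 to 942 CPM and to 22.8 and 49.0 CPM, and their part in this fall was not tested. In OKMS iPSCs Timp1 was at 53.0 and 70.7 CPM, below all 3 OKMS 3NG+ libraries, with a log2 difference of -0.67 (SE 0.31, edgeR FDR 0.386). Mmp13 had 0 reads in the iPSCs of both cassettes, and the 3NG+ cells also held libraries without a read. In OKMS, edgeR and DESeq2 called 0 of 8 members, 4 (Mmp9, Mmp13, Mmp14, and Timp1) had an unadjusted p under 0.05, and 0.614% of all genes were called.

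At the end of the scale, 7 of 8 members were lower in TNG MKOS and TNG OKMS ESCs than in MKOS and OKMS MEFs, against 25.0% of all genes called lower, and Mmp9 was the exception. Timp2 was at 2.05 and 0.291 CPM in TNG MKOS ESCs and at 0.503 and 1.64 CPM in TNG OKMS ESCs, a log2 change of -8.05 (SE 0.56, edgeR FDR 2.53e-15). Timp1 was at 48.6, 25.2, 29.5, and 41.9 CPM in the same libraries, above 3 reads in each, and its log2 change was -4.39 (SE 0.27, edgeR FDR 7.83e-17). Timp1 was detected in all 18 ESC and iPSC libraries, at 25.2 to 118 CPM with a median of 51.1 CPM. Mmp2, Mmp14, and Timp3 had log2 changes of -5.27 (SE 0.56), -4.27 (SE 0.51), and -5.50 (SE 0.56), with FDRs up to 4.62e-09. Mmp3 had 0 reads in all 8 ESC libraries and in 7 of 10 iPSC libraries. Against the floor of 3 reads over a condition, it was at least 756-fold lower in TNG MKOS ESCs than in MKOS MEFs and at least 401-fold lower in TNG OKMS ESCs than in OKMS MEFs. Mmp13 had 0 reads in all 18 ESC and iPSC libraries, and was at least 26.6-fold and 24.2-fold lower by the same floor. Mmp9 was at 0.0978 and 1.74 CPM in TNG MKOS and at 0 and 0.765 CPM in TNG OKMS ESCs, and had 24 reads in all 8 ESC libraries.

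MKOS and OKMS iPSCs differed from TNG MKOS and TNG OKMS ESCs in Timp2. It was at 7.57 and 4.79 CPM in MKOS and at 10.1 and 4.28 CPM in OKMS iPSCs without doxycycline, above the 4 TNG MKOS and TNG OKMS ESC libraries, and the log2 difference was 2.55 (SE 0.52, edgeR FDR 0.0034). The D6 iPSCs, which were not in this comparison, were at 1.86 and 2.36 CPM and overlapped the ESCs, whose highest library was at 2.05 CPM. Timp2 was the 1 member of 8 that edgeR called, against 1.13% of all genes called higher. Mmp3, Timp1, and Timp2 had an unadjusted p under 0.05, and DESeq2 called these 3 among 523 genes. Timp1 was at 49.1 to 70.7 CPM in these iPSCs and at 25.2 to 48.6 CPM in these ESCs, without overlap (FDR 0.0789 in edgeR, 0.0211 in DESeq2). The edgeR call of Timp2 was kept in 10 of 14 other settings. It was lost in a fit to the compared libraries alone (FDR 0.114) and without TNG MKOS ESC replicate 2 (FDR 0.0594), TNG OKMS ESC replicate 1 (FDR 0.0601), or OKMS iPSC replicate 1 (FDR 0.0626). In 2i medium Timp2 was at 2.82 to 5.84 CPM, and between iPSCs in 2i medium and those without doxycycline edgeR called 0 of 8 members, 1 (Timp1) had an unadjusted p under 0.05, and 4.34% of all genes were called. DESeq2 called 1 member there, Mmp3, and 4.07% of all genes lower. Mmp3 was at 0 in 2i medium and at 0 to 4.33 CPM without doxycycline.

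Ordered by the mean of each of the 20 conditions, the 3 MEF conditions held the highest levels of Mmp2, Mmp3, Mmp14, Timp1, Timp2, and Timp3. For Timp1 the order went on through MKOS E-CAD+ 2NG- (401 ± 47.3 CPM, SD, n = 3), MKOS E-CAD+ 3NG- (372 ± 88.3 CPM, SD, n = 3), OKMS E-CAD- 3NG- (326 ± 29.3 CPM, SD, n = 3), and OKMS E-CAD- 2NG- cells (240 ± 45.2 CPM, SD, n = 3). Below them lay OKMS E-CAD+ 3NG- cells (137 ± 26.3 CPM, SD, n = 3), MKOS E-CAD+ 3NG+ cells (135 ± 45.1 CPM, SD, n = 3), and the other sorted and iPSC conditions, and the 4 ESC conditions came last. The libraries of neighbors in this order overlapped in 13 of 19 pairs for Timp1. The number of overlapping pairs was 14 of 19 for Timp2 and for Timp3, 15 for Mmp14, 16 for Mmp2 and for Mmp3, and 18 for Mmp9 and for Mmp13. Across the 20 conditions, Pearson's r of log2(mean CPM + 1) was 0.88 to 0.96 for every pair among Mmp2, Mmp3, Mmp14, Timp1, Timp2, and Timp3, and 0.50 to 0.65 for pairs with Mmp9. These r describe conditions that share libraries of the same cell types and are not tests.

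Mmp3 levels went with the replicate number of the labels in the Nanog-GFP- populations. Replicate 3 was the highest of the 3 libraries in 6 of 6 Nanog-GFP- populations, at 5.89 to 71.6 CPM with a median of 32.8 CPM. Replicate 1 was at 0 to 2.97 CPM and replicate 2 at 0 to 4.25 CPM, so no library of either reached the lowest replicate 3. Lum, a matrix proteoglycan of fibroblasts, was likewise highest in replicate 3 in 6 of 6 populations, at 6.59 to 77.4 CPM against 0 to 10.1 CPM. The macrophage and blood markers were lowest in replicate 3 in 6 of 6, at 28.5 to 168 CPM against 265 to 1938 CPM. The sum of all 10 fibroblast markers was highest in replicate 3 in 2 of 6 and lowest in 2 of 6, and that of 7 trophoblast markers was highest in replicate 3 in 6 of 6, at 24.4 to 106 CPM against 4.95 to 58.0 CPM. Timp1 was highest in replicate 3 in 1 of 6 populations and lowest in 5 of 6. Col1a1, a main collagen of fibroblasts, was highest in replicate 3 in 0 of 6. The labels do not say what a replicate number stands for, and these 6 libraries are among the 7 that the averages of the study's table leave out. The part of these markers in the Mmp3 levels was not tested. In 3NG+ cells, Mmp3 was at 0, 0, and 9.87 CPM in MKOS replicates 1, 2, and 3. In OKMS 3NG+ cells it was at 40.9, 0, and 9.59 CPM, so replicate 1 was the highest there.

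**Figure D4:**
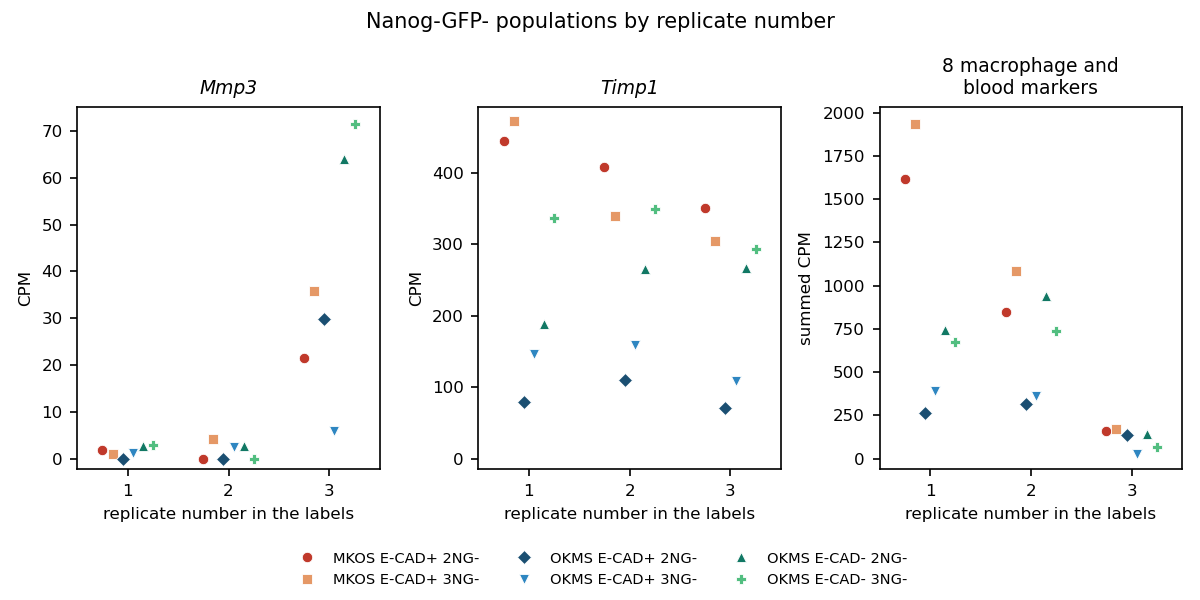
Mmp3, Timp1, and the sum of 8 macrophage and blood markers (CPM) in the 6 Nanog-GFP- populations, by the replicate number of the labels. Each point is a library, drawn side by side by population. Mmp3 reaches 71.6 CPM in replicate 3 and stays at or below 4.25 CPM in replicates 1 and 2, while the marker sum is at 28.5 to 168 CPM in replicate 3 and at 265 CPM or more in the others.

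Other genes of the protease system were counted from 4 lists, and all 4 are described by counts. Of 12 tested among 19 other Mmp and Timp genes, Mmp10, Mmp11, Mmp19, and Mmp23 were called lower than in MEFs in all 3 populations of 2NG- cells, and no gene of the list was called higher. The shares of all genes called lower in MKOS E-CAD+, OKMS E-CAD-, and OKMS E-CAD+ 2NG- cells, beside which the counts of all 4 lists are to be read, were 12.0%, 10.1%, and 13.5%. Mmp19 was at 120 CPM on average in MKOS MEFs and at 1.97 CPM in MKOS E-CAD+ 2NG- cells, a log2 change of -5.94 (SE 0.94, edgeR FDR 6.91e-06). Mmp10, a second stromelysin, was at 13.2 CPM in MKOS and at 16.8 CPM in OKMS MEFs on average and had 0 reads in MKOS and in OKMS E-CAD+ 2NG- cells.

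Of 19 tested activators, inhibitors, and receptors, 9 were called lower and 1 higher in MKOS E-CAD+ 2NG- cells than in MKOS MEFs, and 13 lower and 0 higher in each of the OKMS populations. Plat, a plasminogen activator, and Serpine2, a protease inhibitor, were lower in all 3. The gene called higher was Pcsk6, a proprotein convertase, at 28.4 CPM on average in MKOS E-CAD+ 2NG- cells and 1.47 CPM in MKOS MEFs. Pcsk6 was also higher in MKOS than in OKMS E-CAD+ 2NG- cells, by 2.98 on the log2 scale (SE 0.52), and 5 genes of the list were called higher and 0 lower in that comparison, where 2.84% of all genes were called higher.

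Of 18 matrix substrates, 11, 12, and 14 were called lower than in MEFs in MKOS E-CAD+, OKMS E-CAD-, and OKMS E-CAD+ 2NG- cells, and Lama1, a laminin chain of epithelial basement membranes, was called higher in each. In the cassette comparison of E-CAD+ 2NG- cells, 9 substrates were higher in MKOS and 0 lower, beside 2.84% of all genes called higher, with a median log2 difference of 1.60 over the 18, against 1.35 over the 8 members and 0.00 over all genes. Col1a2, Bgn, and Col1a1 were among them, at 215 against 46.6, 126 against 26.2, and 137 against 29.7 CPM on average. Of 15 Adam and Adamts proteases, which Timp3 can inhibit in part, 6, 5, and 10 were called lower than in MEFs and 0 higher. Adam9 and Adamts1 were called lower in all 3 populations.

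By the correlation of log2(mean CPM + 1) over the 20 conditions, the genes most like the members are named with their Pearson's r. For Timp1 they were Col5a1, Fbln2, and Gng10 (r 0.972, 0.971, and 0.970), for Timp2 Cav1, Fbln2, and Tnc (r 0.980, 0.978, and 0.977), and for Timp3 Prss23, Tnc, and Sdpr (r 0.974, 0.969, and 0.968). For Mmp2 they were Prkcdbp, Rnf150, and Fat4 (r 0.977, 0.976, and 0.975), for Mmp14 Aebp1, Mfap2, and Ehd2 (r 0.974, 0.971, and 0.969), and for Mmp3 Lgals3bp, Col6a3, and Ptn (r 0.960 for each of the first 2 and 0.959). For Mmp13 they were Cbr2, C1qtnf5, and Sod3 (r 0.942, 0.939, and 0.937), and for Mmp9, which had few reads, Pcdhb17 and Klhl1 (r 0.792 and 0.768).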

How the data were processed

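STRT reads were mapped and counted by the authors, who deposited raw read counts per transcript for each of 48 libraries. Per the file headers, a read with several hits was assigned to its most 5′ exonic hit. The labels name Bowtie 0.12.7 and mm10, and the study's methods name an earlier mouse build. Gene positions in the deposited table matched GRCm38, since 50.8% of 10324 plus-strand genes began exactly 100 bases before the RefSeq start. No per-sample column was left unused (0). Libraries were grouped by GEO's labels.

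Counts were tested as deposited with edgeR 4.0.16 in R 4.3.3 (quasi-likelihood test, TMM normalization, 1 coefficient per condition, all 48 libraries). Genes were filtered by condition with filterByExpr, which left 15630, and an FDR (Benjamini-Hochberg over all of these) of at most 0.05 was called. The SE is the log2 fold change divided by the square root of F. CPM was computed from reads on transcripts, leaving out repeats and spike-in RNAs. On simulated data for the cassette comparison of E-CAD+ 2NG- cells, with 200 of 15630 genes changed 4-fold, 135 genes were called, of which 129 were changed genes with the right sign. The changed genes were drawn from those above a minimum of expected reads, and no shift by replicate number was simulated. The result thus does not cover genes with few reads, such as Mmp9. The common dispersion was 0.217. The most alike pair of replicates differed by 13.4 times the counting noise (chi-square over degrees of freedom), so no library was taken for a copy of another.

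The other settings were DESeq2 1.42.0 (Wald test), DESeq2 size factors in edgeR, no low-count filter, a block for the replicate number, the libraries of the compared groups alone, each library left out in turn with the trended dispersion of the whole fit kept, and the 41 libraries that the averages of the study's supplementary table contain. That table served only to find which libraries it averages. Same-numbered libraries of different populations had correlated deviations in 23 of 84 pairs at r over 0.1 (mean 0.0810, range -0.0414 to 0.352). Most of these were pairs within 1 cassette, such as replicate 3 of the OKMS Nanog-GFP- populations (0.186 to 0.328). Replicate numbers were not taken to pair libraries, so the tests within a cassette leave this shared deviation out. The only populations with all 3 pairs over 0.1 were MKOS E-CAD+ 3NG- and 2NG- cells (0.104 to 0.352). A fit with the replicate block called 0 members there as well. The main fit thus had no term for the replicate number, although replicate 3 stood apart for Mmp3, Lum, and the macrophage and blood markers in the Nanog-GFP- populations.

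The members, gene lists, and markers were chosen with earlier results of these data known, and 3 of the 23 comparisons were added after the values had been seen. All members are described, at most 5 called genes with the lowest FDR are named from each related list, and the 3 genes with the highest r for each member. Some genes that this rule takes are not reported here. Matrix substrates include 5 of the fibroblast markers (Col1a1, Col1a2, Col3a1, Fn1, and Dcn). Promoter sequences are RefSeq's for GRCm38.p6. Tables were handled with Python 3.11.15, pandas 2.3.3, and NumPy 2.4.6, and plots were drawn with Matplotlib 3.10.9. Intervals from 3 reads cover counting error only.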

Additional observations from a re-analysis of the deposited data

Results flagged for a closer look

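The departure of Timp1 from its MEF level, averaged over the E-CAD+ 2NG- and 3NG- gates, differed between the cassettes by -1.96 on the log2 scale, OKMS minus MKOS (SE 0.39, edgeR FDR 0.00341). It was picked out because the same contrast gave unlike values for 2 groups of cells.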

How the results depend on the processing

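Of 33 calls of members over 23 comparisons, all 33 were kept with DESeq2, with its size factors in edgeR, without the low-count filter, and with the replicate block, 30 without the 7 libraries, and 29 in fits to the compared libraries alone, and no call reversed. Leaving out 1 library kept 181 calls and lost 27, over 10 results. The number of members called moved as follows.

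With the replicate block it was 3 for E-CAD+ against E-CAD- 2NG- cells and 1 for MKOS against OKMS 3NG+ cells. It was 2 for MKOS iPSCs against 3NG+ cells and 2 for the interaction. In the same order, the block fit called 450, 159, 430, and 314 of all genes. Mmp3 was then called lower than in MEFs in all 3 populations of 2NG- cells (FDRs 0.000114, 0.00995, and 0.000854). The block covered the sorted libraries alone, so comparisons of sorted with unsorted cells used the level of replicate 1. Without the 7 libraries it was 3 and 0 for E-CAD+ against E-CAD- 2NG- and 3NG- cells and 1 for MKOS against OKMS 3NG- cells. It was 1 for OKMS 3NG+ against 3NG- cells (Mmp3, higher in 3NG+), 2 for MKOS iPSCs against 3NG+ cells, and 2 for the interaction. Of all genes, 290 and 159, 275, 1461, 585, and 341 were called there, in the same order. In fits to the compared libraries alone it was 2 for E-CAD+ against E-CAD- 2NG- cells and 1 for MKOS against OKMS 3NG- cells. It was 0 for MKOS iPSCs against 3NG+ cells, 0 for iPSCs against ESCs, and 2 for the interaction. It was 1 for MKOS E-CAD+ against OKMS E-CAD- 2NG- cells and 3 for wt against cassette MEFs. The same fits called 176, 277, 283, 166, 269, 1569, and 374 of all genes, in this order. With DESeq2 it was 4 for E-CAD+ against E-CAD- 2NG- cells and 2 for MKOS iPSCs against 3NG+ cells. It was 1 for 2i against -dox iPSCs and 3 for iPSCs against ESCs. DESeq2 called 574, 586, 1016, and 523 of all genes in these comparisons.

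Without the low-count filter it was 4 and 4 for E-CAD+ against E-CAD- 2NG- and 3NG- cells. It was 4 and 1 for MKOS against OKMS 3NG- and 3NG+ cells. For 3NG+ against 3NG- cells of MKOS and OKMS it was 5 and 2, and for OKMS E-CAD+ 3NG- against 2NG- cells 3. Of all 19768 genes then tested, 843 and 660, 864 and 484, 887 and 1453, and 149 were called, in this order. For iPSCs against 3NG+ cells of MKOS and OKMS it was 5 and 2, and for 2i against -dox iPSCs 2. It was 3 for iPSCs against ESCs and 3 for the interaction. For MKOS E-CAD+ against OKMS E-CAD- 2NG- cells it was 2, and for the difference of the 3NG- to 3NG+ step 1. In these last comparisons 799 and 384, 1025, 564, 611, 1805, and 163 of all genes were called. The cause of these moves was not tested.

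Leaving out 1 library gave 1 to 3 for MKOS against OKMS 2NG- cells, 1 to 2 for 3NG- cells, 0 to 1 for MKOS 3NG+ against 3NG- cells, 1 to 3 and 0 to 1 for E-CAD+ against E-CAD- 2NG- and 3NG- cells, 0 to 2 for MKOS iPSCs against 3NG+ cells, 0 to 1 for 2i against -dox iPSCs, 0 to 2 for iPSCs against ESCs, and 0 to 2 for the interaction. Genes called among all tested moved too, from 793 to between 593 and 1260 for MKOS against OKMS 2NG- cells, from 339 to between 275 and 864 for 3NG- cells, from 372 to between 176 and 843 and from 274 to between 101 and 660 for E-CAD+ against E-CAD- 2NG- and 3NG- cells, and from 224 to between 234 and 611 for the interaction. For MKOS against OKMS MEFs 16 became 20 to 360, for MKOS 3NG+ against 3NG- cells 247 became 253 to 887, and for MKOS iPSCs against 3NG+ cells 335 became 283 to 799. The other counts that moved by more than 1.5 times were 107 (96 to 484) for MKOS against OKMS 3NG+ cells, 979 (428 to 1505) for OKMS 3NG+ against 3NG- cells, 61 (61 to 237), 6 (0 to 149), and 7 (0 to 104) for 3NG- against 2NG- cells of MKOS E-CAD+, OKMS E-CAD+, and OKMS E-CAD-, 96 (58 to 384) for OKMS iPSCs against 3NG+ cells, 679 (357 to 1025) for 2i against -dox iPSCs, 219 (166 to 564) for iPSCs against ESCs, 1499 (873 to 1890) for MKOS E-CAD+ against OKMS E-CAD- 2NG- cells, 112 (108 to 374) for wt against cassette MEFs, and 4 (4 to 163) for the difference of the 3NG- to 3NG+ step. Mmp9 had 325 reads in all libraries, and 3 reads were worth up to 2.10 CPM in a library.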
